A study of Sus scrofa with 6 samples.

Results

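The renin-angiotensin system genes examined here were AGT, ACE, AGTR1, AGTR2, MAS1, ENPEP and MME, and the members were chosen as the array probes whose gene name column holds one of these 7 symbols. By that rule 2 of the 7 genes were found, of 3438 genes named in that column, with 5 of 43603 probes (2 for ACE and 3 for ENPEP). A further 11 probes carry an accession or a gene number in place of a gene symbol but were traced to the same genes through the accession, gene number or description columns, a step added after the files were seen. They comprised 4 for AGT, 2 for AGTR1, 1 for AGTR2, 1 for MME, 2 for ACE and 1 for ENPEP. No probe was found for MAS1 by either route, and it is not analysed here.

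Renal cortex RNA came from 3-month-old Large White pigs, with 1 Agilent array per kidney and each kidney from a different pig. The ischemia group (n = 3) was clamped and kept clamped for 60 min at 37 °C, then rinsed with cold University of Wisconsin fluid, which is used to preserve organs, and held at 4 °C for 24 h before freezing. The control group (n = 3) was removed, sampled and frozen at once. No kidney was reperfused, and warm ischemia, flush and cold storage form 1 sequence that cannot be separated. Each of the 3 slides carried 1 ischemia and 1 control array, with the ischemia arrays always at position 3 and the control arrays always at position 4. Group and position therefore cannot be told apart.

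In this system the liver and the kidney make angiotensinogen (AGT), from which angiotensin I is cut. ACE converts angiotensin I to angiotensin II, which raises blood pressure and sodium retention mainly through the receptor AGTR1. In the cortex the peptidases ACE, ENPEP and MME are abundant on the brush border of proximal tubule cells, where filtered and locally made angiotensins are processed.

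Each value comes from a probe of 60 bases. The place of each probe sequence in the transcript was not checked. The sequences below are as listed in the scanner files, and they are shown for 1 probe each of ENPEP, AGT, AGTR1, AGTR2 and MME. Where a gene had several probes, they did not always give the same pattern over the kidneys. Each probe shown has at least 1 forward reading frame without a stop, whereas the ENPEP probe A_72_P604233, which is not shown, has none.
ENPEP probe A_72_P442776: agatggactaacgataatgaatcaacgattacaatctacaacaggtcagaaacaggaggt
AGT probe A_72_P489129: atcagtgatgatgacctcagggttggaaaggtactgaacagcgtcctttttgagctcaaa
AGTR1 probe A_72_P444186: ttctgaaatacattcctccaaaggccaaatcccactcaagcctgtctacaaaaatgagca
AGTR2 probe A_72_P186241: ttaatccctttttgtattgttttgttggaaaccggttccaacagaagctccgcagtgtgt
MME probe A_72_P279314: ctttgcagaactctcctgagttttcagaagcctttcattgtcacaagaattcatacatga

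The ACE and ENPEP signals differed between ischemia and control kidneys by less than the test could separate from the spread between kidneys. All 5 probes had a negative log2 difference, between -0.37 and -0.05, and in none did the groups separate. The sign changed under other scalings for ACE A_72_P599978, which was at 0.10 with median centring and at 0.20 in the authors' deposited table. The ENPEP row of the authors' deposited table, which stands for an accession rather than 1 probe, was at 0.00665. None passed limma at a Benjamini-Hochberg adjusted p under 0.05 (0 of 5 higher, 0 of 5 lower), against 0% higher and 0.004% lower over the 25013 probes tested. At an unadjusted limma p under 0.05 the count was also 0 of 5, beside 6.3% of all probes. Without control kidney 3 it was 1 of 5 (ACE A_72_P232662, lower), beside 4.15% lower of all probes. The median difference was -0.23 over the 5 probes and -0.04 over all probes tested, of which 44.2% were positive. Levels are log2 of the processed signal relative to the 75th percentile of the array, so 0 is that percentile. Probes are called bright or dim by their signal alone, which does not give relative transcript amounts between genes.

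ENPEP encodes aminopeptidase A, which removes the first residue of angiotensin II to give angiotensin III. The files list its 3 named probes at start bases 1805, 3093 and 3490 of 1 accession. The probe listed at 3490, A_72_P035326, had levels of 7.46, 7.65 and 7.09 in ischemia kidneys 1 to 3, against 7.80, 7.52 and 7.54 in control kidneys 1 to 3. Ischemia kidney 3 was the lowest of the 6 and control kidney 1 the highest, and the other 4 lay between them with the groups mixed. Its difference was -0.22 ± 0.22 (SE, n = 3 per group), with a 95% confidence interval of -0.74 to 0.30 (limma adjusted p = 0.941).

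The ENPEP probe listed at 1805, A_72_P442776, read 2.40, 2.52 and 1.82 in the ischemia kidneys, against 2.92, 2.53 and 2.40 in the controls. The same 2 kidneys formed the extremes. This was the largest difference among the 5 probes, at -0.37 ± 0.26 (SE), or 1.29-fold lower after ischemia, with an interval of -0.99 to 0.25 (limma adjusted p = 0.908). The third ENPEP probe, A_72_P604233, gave 6.22, 6.27 and 5.74 after ischemia, against 6.65, 6.23 and 6.04 in controls. Its difference was -0.23 ± 0.25 (limma adjusted p = 0.941). The 3 probes share no stretch of over 7 bases, so they read separate parts of the transcript, but they share the same 6 RNA samples and are not replicates.

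The ENPEP value moved when single kidneys were left out. Without ischemia kidney 3 the difference of the probe listed at 3490 was -0.06 in place of -0.22, and without control kidney 1 it was -0.13. Within slides this probe differed by -0.15, -0.43 and -0.08 on slides 1, 2 and 3, and the probe listed at 1805 by -0.40, -0.71 and 0.00. With slide as a block the limma adjusted p of the 5 probes ran from 0.680 to 0.954.

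A further ENPEP probe, A_72_P349703, was traced through its description and was dim. It was well above background on 1 of 3 ischemia arrays and 3 of 3 control arrays. The control arrays, where it was higher, alone met the filter for testing. Its test and its direction are therefore not independent of that filter. Levels were -3.30, -4.42 and -4.22 after ischemia, against -2.73, -3.73 and -2.67 in controls, and the groups overlapped only through ischemia kidney 1 and control kidney 2. The difference was -0.93 ± 0.40 (SE, limma adjusted p = 0.797), and blocking on slide gave 0.422 for that p (0.0177 unadjusted). It was in the same direction on all 3 slides (-1.68, -0.49 and -0.63). Its size is uncertain at signals this near to background.

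**Figure D1:**
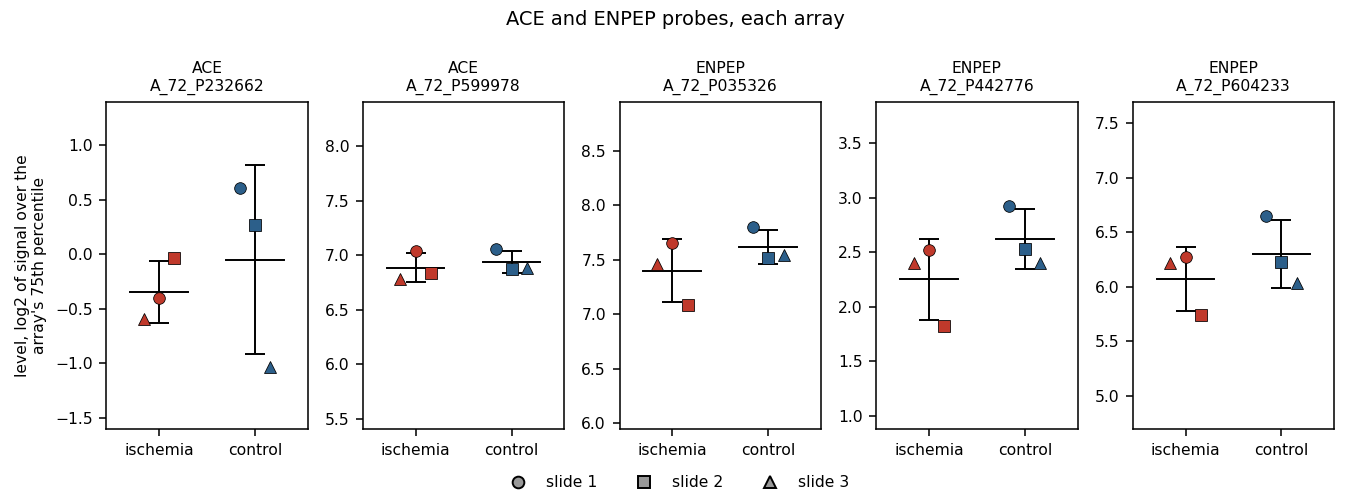
Levels of the 5 ACE and ENPEP probes on each array, as log2 of the signal over the 75th percentile of the array. Each point is 1 kidney, the marker shape gives the slide, and the bars are the mean ± SD of 3 kidneys; the ischemia and control points overlap in every panel, and ischemia kidney 3 (slide 2, red square) is lowest in all 3 ENPEP panels.

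ACE, the peptidase that makes angiotensin II and also degrades bradykinin, had a narrow and a wide probe. A_72_P599978 gave 6.79, 7.04 and 6.83 in the ischemia kidneys, against 7.05, 6.88 and 6.88 in the controls. The 6 kidneys spanned 0.27 log2 units, and the difference was -0.05 ± 0.19 (SE), with an interval of -0.49 to 0.39 (limma adjusted p = 0.974). As folds of ischemia over control, the interval runs from 0.712 to 1.31.

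The other named ACE probe, A_72_P232662, is listed under transcript variant 2. Its levels were -0.60, -0.40 and -0.04 after ischemia, against 0.61, 0.27 and -1.03 in controls. The control kidneys held both the highest and the lowest value, and the 3 ischemia kidneys lay inside that range. Its difference of -0.29 ± 0.43 (SE, limma adjusted p = 0.948) was -1.01 on slide 1, -0.31 on slide 2 and 0.43 on slide 3. Without control kidney 1 it was 0.04 and without control kidney 3 it was -0.78.

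A_72_P404518, traced to ACE through a description as the testicular form, ordered the controls the same way, with -1.91, -2.08 and -1.60 after ischemia, against -0.96, -1.43 and -2.54 in controls. Its difference was -0.22 ± 0.40 (SE, limma adjusted p = 0.955). It shares at most 9 bases with the named ACE probes. The last ACE probe, A_72_P418074, was well above background on 1 ischemia and 1 control array and was not tested, with levels of -4.94 to -3.86 after ischemia and -4.09 to -2.93 in controls.

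The 3 ACE probes that were tested thus did not give 1 pattern over the kidneys. On the probe A_72_P599978 the controls differed by less than 0.2 log2 units, and on the other probes they spanned over 1.5. Which transcripts each probe detects was not tested.

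AGT, the substrate of the system, had the widest range over the kidneys among the tested probes of these genes, up to 2.73 log2 units. All 4 of its probes had a higher mean after ischemia, and none passed the test. On A_72_P034386 the levels were 0.55, 0.02 and -1.47 in the ischemia kidneys, against -1.07, -1.11 and -2.18 in the controls. Ischemia kidneys 1 and 2 lay above all controls, whereas ischemia kidney 3 lay among them. The difference was 1.15 ± 0.55 (SE), 2.22-fold higher, with an interval of -0.15 to 2.45 (limma adjusted p = 0.852).

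A_72_P606963 showed the same order, with -0.76, -1.63 and -2.89 after ischemia, against -2.59, -2.60 and -3.49 in controls (difference 1.13 ± 0.54, SE, limma adjusted p = 0.851). A_72_P568899 gave -1.03, -1.88 and -3.19, against -2.72, -2.87 and -2.65 in controls (difference 0.71 ± 0.50, SE, limma adjusted p = 0.908), with ischemia kidney 3 the lowest of all 6. Without ischemia kidney 1 the difference was 0.64 for A_72_P606963 and 0.21 for A_72_P568899, and without ischemia kidney 3 it was 1.70 and 1.29. A_72_P568899 shares a stretch of 45 bases with A_72_P034386, so these 2 probes read almost the same site. Within slides A_72_P034386 differed by 1.09, -0.37 and 2.73 on slides 1 to 3. Its difference was 1.74 without ischemia kidney 3 (limma adjusted p = 0.431) and 0.73 without ischemia kidney 1.

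The remaining AGT probe, A_72_P489129, named through its gene number, ordered the kidneys differently. It read -3.28, -2.74 and -1.92 in the ischemia kidneys, against -3.42, -3.32 and -2.39 in the controls. Here ischemia kidney 3 and control kidney 3 were the highest of their groups, although on A_72_P034386 both were the lowest of theirs. The difference was 0.40 ± 0.42 (SE, limma adjusted p = 0.941), with slides at 0.68, 1.40 and -0.89. Without ischemia kidney 3 it was 0.03, without ischemia kidney 1 it was 0.72, without control kidney 1 it was 0.21, without control kidney 2 it was 0.26, without control kidney 3 it was 0.72, and normexp background correction with the 75th percentile gave 0.01. All 4 AGT probes were well above background on all 6 arrays.

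AGTR1, the receptor that carries most effects of angiotensin II, differed in the same direction on all 3 slides with both of its probes. A_72_P392083 had levels of 1.24, 1.65 and 1.90 in the ischemia kidneys, against 1.26, 1.22 and 0.77 in the controls. Ischemia kidneys 2 and 3 lay above every control, and ischemia kidney 1 lay within the control range. The difference was 0.52 ± 0.25 (SE), 1.43-fold higher, with an interval of -0.08 to 1.11 (limma adjusted p = 0.852). Blocking on slide, that p was 0.517 (0.0399 unadjusted).

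On the second AGTR1 probe, A_72_P444186, levels were -0.65, -0.32 and 0.12 after ischemia, against -0.51, -0.53 and -1.31 in controls. The order of the 3 ischemia kidneys matched that of the first probe, as did the lowest kidney, control 3. Its difference was 0.50 ± 0.31 (SE, limma adjusted p = 0.899), and the slides gave 0.19, 0.65 and 0.66. The first probe gave 0.39, 0.69 and 0.47 on slides 1 to 3. With each array left out in turn, the first probe ranged from 0.36 to 0.70 and the second from 0.24 to 0.68. Neither probe passed the test.

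AGTR2, the second angiotensin II receptor, which is mostly a fetal gene in kidney, was not well above background on any of the 6 arrays. Its levels lay between -7.01 and -6.12 in the ischemia kidneys and between -6.56 and -6.18 in the controls, and no fold is given for it.

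MME, or neprilysin, cuts angiotensin I to angiotensin 1-7 and degrades natriuretic peptides. Its single probe, A_72_P279314, gave 4.26, 3.94 and 4.46 after ischemia, against 3.98, 4.12 and 3.72 in controls. Ischemia kidneys 1 and 3 lay above all controls, and ischemia kidney 2 lay inside their range. The difference was 0.28 ± 0.22 (SE), with an interval of -0.25 to 0.81 (limma adjusted p = 0.924), opposite in sign to ENPEP, a peptidase of the same brush border. Without ischemia kidney 3 it was 0.16, without control kidney 3 it was 0.17, without ischemia kidney 2 it was 0.42, and in the authors' deposited table it was 0.52 (limma unadjusted p = 0.026, adjusted p = 0.371). Whether MME and ENPEP responded differently was not tested.

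**Figure D2:**
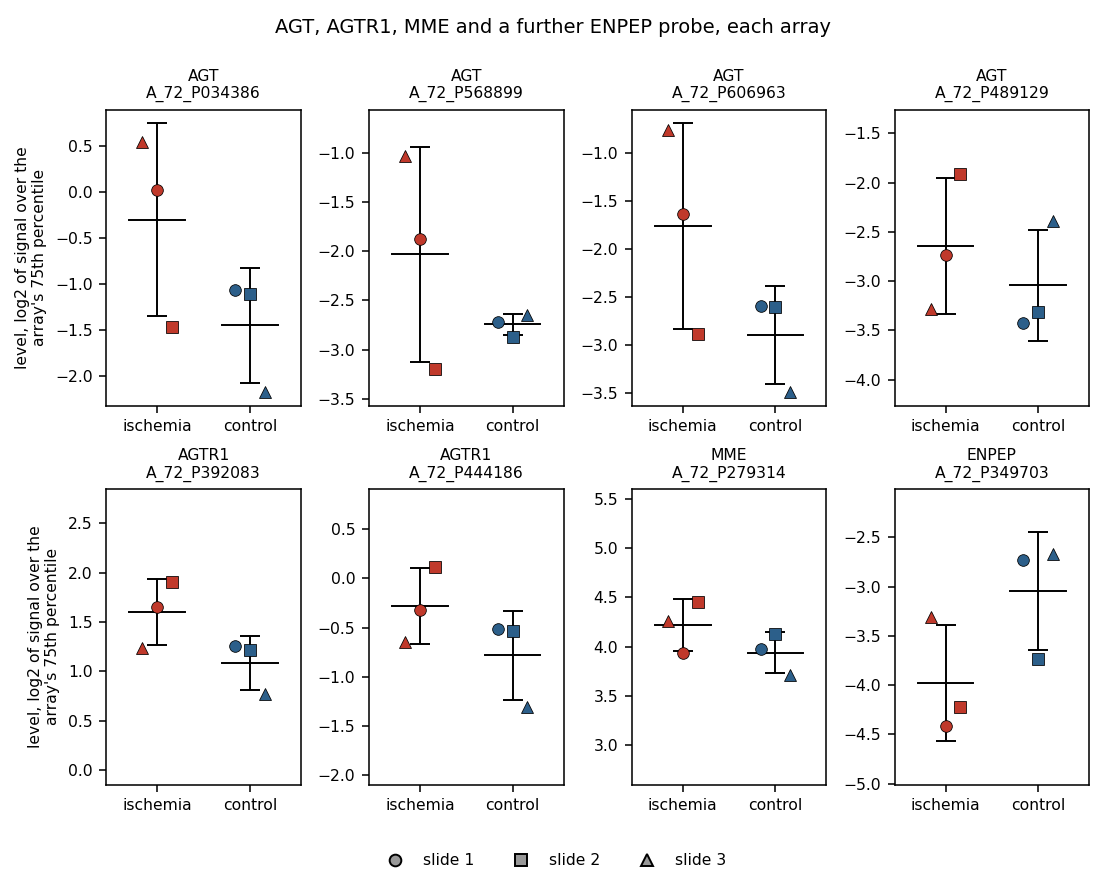
Levels on each array, as log2 of the signal over the 75th percentile of the array, for the 4 AGT probes, both AGTR1 probes, the MME probe and the dim ENPEP probe; points are kidneys, marker shapes are slides and bars are the mean ± SD of 3 kidneys. Ischemia kidney 3 (red square) is the lowest ischemia value on 3 AGT probes and the highest on the remaining AGT probe and on both AGTR1 probes.

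Of the 16 probes traced to these genes, 14 were tested and 0 passed limma after adjustment over all probes. Of the 14, 7 had a positive and 7 a negative difference. As scaled here, ACE and ENPEP made up all the negative values, and AGT, AGTR1 and MME all the positive ones. Each tested ACE probe changed sign in some other settings, and the deposited ENPEP row was at 0.00665. The 14 probes stand for 5 genes on the same kidneys. At an unadjusted limma p under 0.05 there were 0 of 14. With slide as a block there were 2 of 14, AGTR1 A_72_P392083 higher and ENPEP A_72_P349703 lower, beside 3.63% higher and 5.63% lower of all probes. The control arrays of that ENPEP probe alone met the filter for testing, so its call is not independent support. In the authors' deposited table there were 4 of the 9 probes that have a row of their own, all higher (both AGTR1 probes, MME and AGT A_72_P568899), beside 10.2% higher and 1.11% lower of all its rows. With median centring there were 2, both AGT and higher, beside 963 higher and 494 lower of all 25013 probes. With single kidneys left out there were 0 to 3. The 3 were AGT and higher, without ischemia kidney 3 (1041 higher and 932 lower of all probes). Without control kidney 3 there were 2, both ACE and lower (659 and 1039). With same-numbered kidneys as a block (the replicate block) there were 3, beside 537 higher and 678 lower of all probes. They were AGT A_72_P034386 and A_72_P606963, higher, and ENPEP A_72_P349703, lower. None of the probes counted in these settings passed after adjustment. In none of the 14 did all ischemia values lie above or below all control values, beside 5.88% of all probes above and 5.03% below. With 3 kidneys per group the smallest two-sided p of an exact permutation test is 0.1, so no such p is given.

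**Figure D3:**
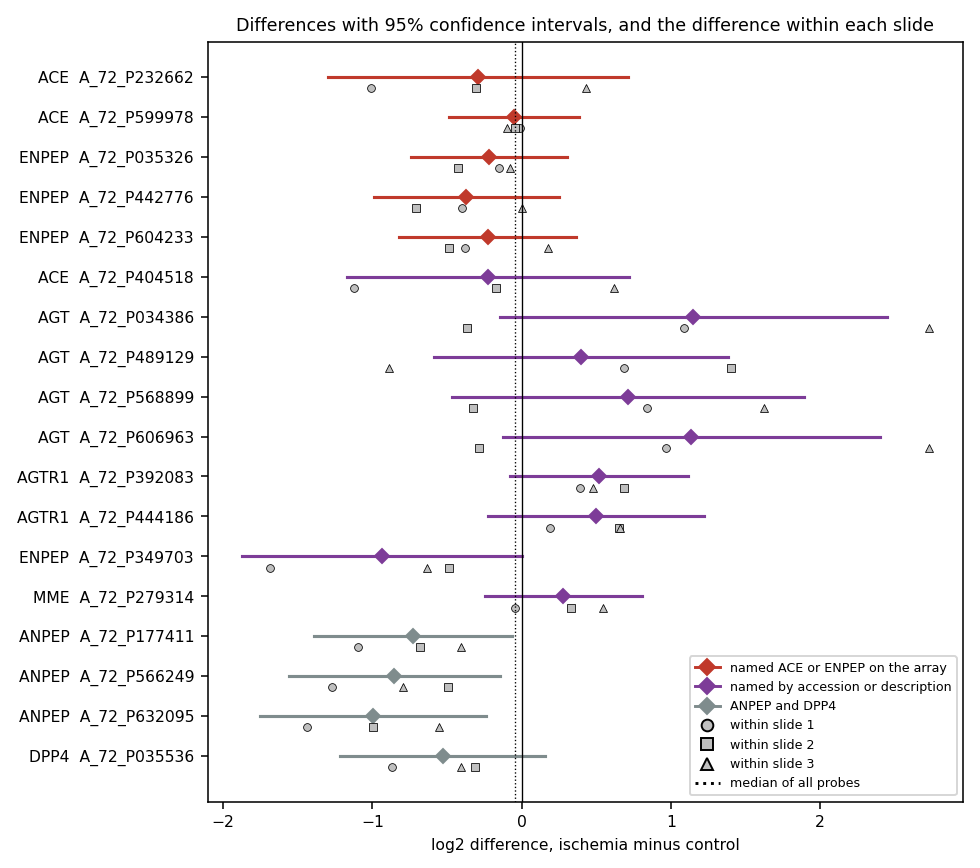
Log2 differences, ischemia minus control, with 95% confidence intervals from limma (diamonds and lines) and the difference within each slide (small grey symbols), for the 14 tested probes of the listed genes and for ANPEP and DPP4. The intervals of all 14 include 0. Those of the 3 ANPEP probes do not, which only restates their unadjusted limma p under 0.05. None of the 3 passed after adjustment (smallest limma adjusted p = 0.682). The dotted line marks the median of all probes, -0.04.

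A wider list of 30 genes of angiotensin processing, kinin and aldosterone action was described beside them. It holds 14 genes with 27 probes named on the array, and ATP6AP2 and AGTRAP were not among them and are not analysed here. Of 26 probes tested, 0 passed limma after adjustment, 0 were higher and 3 lower at an unadjusted p under 0.05 (beside 2.98% higher and 3.32% lower of all probes), and the median difference was -0.29. Over all probes the counts at that p were 745 higher and 830 lower, against 963 and 494 with median centring, 976 and 704 with quantile normalization, 944 and 699 with normexp and quantile normalization, and 3764 and 410 in the authors' deposited table. All 3 belonged to ANPEP, aminopeptidase N, which turns angiotensin III into angiotensin IV.

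The ANPEP probe with the largest difference, A_72_P632095, had levels of 1.91, 2.21 and 2.28 in the ischemia kidneys, against 3.64, 3.27 and 2.47 in the controls. The groups did not overlap on this probe, but it was picked by its large difference, so this adds no support. They overlapped on ANPEP A_72_P177411. In the wider list the ischemia values lay wholly below the controls on 2 of 26 probes tested, both ANPEP, beside 5.03% of all probes. The difference of A_72_P632095 was -0.995 ± 0.32 (SE, limma adjusted p = 0.682), and the other ANPEP probes gave -0.85 and -0.73. ANPEP was negative on all 3 slides with each probe. The count of 3 lower for the wider list was 0 with median centring and without control kidney 2 (1.97% and 1.73% lower of all probes). It was 1 without ischemia kidney 2, without control kidney 1 and with the replicate block (2.42%, 8.77% and 2.71%). With slide as a block, without ischemia kidney 3 and with normexp and quantile normalization it was 4 (5.63%, 3.73% and 2.79%). Without control kidney 3 it was 6 (4.15%). Without ischemia kidney 1 the 1 probe was RGS2, which was higher, and not ANPEP (2.58% higher of all probes). In the authors' deposited values PREP A_72_P114511, higher, was the only call among the 8 probes with a row of their own. Of all rows there, 10.2% were higher and 1.11% lower. No ANPEP probe has a row of its own there.

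DPP4, another brush border peptidase, differed by -0.53 ± 0.29. HSD11B2, which shields the mineralocorticoid receptor from cortisol, differed by -0.62 ± 0.31, and RGS2, a brake on AGTR1 signalling, by 0.75 ± 0.41.

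The lysosomal proteases CTSB and CTSD, which can act on angiotensinogen in the test tube, had differences from -0.84 to -0.24 over 7 probes. Ischemia kidney 3 was the lowest ischemia value on each of these 7. NLN, or neurolysin, which can cut angiotensin I, gave -0.14, 0.25 and 0.43 on its 3 probes. None of these genes passed the test, and the smallest limma adjusted p in the wider list was 0.682.

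Proximal tubule markers had negative differences on balance, as did ENPEP. ACE differences were negative too, but each tested ACE probe changed sign in some other settings. The brightest ACE probe was at -0.05, beside a median of -0.04 over all probes, of which 44.2% were positive. Of 12 listed markers, 8 were found on the array and all 8 were tested, with 6 negative and 2 positive differences and a median of -0.61. After adjustment 0 passed limma. At an unadjusted limma p under 0.05, 4 were lower, beside 3.32% of all probes. They were SLC22A6 (-1.03), MIOX (-0.81), GATM (-0.75) and SLC34A1 (-0.64), named after their values were seen. The summed level of the 8, in multiples of the 75th percentile, was 938 to 1029 in the ischemia kidneys and 991 to 1265 in the controls. FBP1 alone made up 40.5% to 56.0% of that sum, and 0 of the 8 were without a signal above background. The 2 brightest, FBP1 and PDZK1, differed by -0.15 ± 0.25 and 0.14 ± 0.21 (SE). The part of these markers in the ENPEP and ACE values was not tested, and in a bulk sample fewer cells of a type and less RNA per cell cannot be told apart.

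For the other cell types the median differences were 0.10 for endothelial (6 of 8 markers tested), 0.22 for mesangial, pericyte and smooth muscle (6 of 10), 0.05 for fibroblast (4 of 6), -0.03 for leukocyte (5 of 8), 0.38 for podocyte (2 of 8), 0.34 for thick ascending limb and distal tubule (2 of 5) and -0.30 for collecting duct (3 of 5). Near-0 medians covered members that went both ways. At an unadjusted limma p under 0.05 the leukocyte list had CD163 higher (1.42) and CD247 lower (-1.33), and the fibroblast list had COL1A2 lower (-1.64). The endothelial list had TEK higher (0.78) and the mesangial, pericyte and smooth muscle list had CNN1 higher (0.92). TEK, CNN1 and COL1A2 were named after their values were seen. The groups did not overlap for any of the 5, but the 5 were picked by their small p, so this adds no support. Over all probes the ischemia values lay wholly above the controls in 5.88% and wholly below in 5.03%. Among the proximal tubule markers picked by the same rule, the groups overlapped for SLC34A1, MIOX and GATM but not for SLC22A6. Vascular and mesangial cells are among the known sites of AGTR1, and not the only ones. The summed mesangial, pericyte and smooth muscle level was 112 to 141 after ischemia and 105 to 115 in controls, with ACTA2 at 0.28 ± 0.22 and DES at 0.19 ± 0.20 (SE). ACTA2 alone made up 64.2% to 74.6% of that sum, and over the list 5 differences were positive and 1 was negative. Their part in the AGTR1 values was not tested. No tested marker of any list passed limma after adjustment.

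Among named probes of other genes, those most like the brightest ENPEP probe over the 6 arrays were ND1 A_72_P757573 (Pearson r = 0.985) and AQP2 A_72_P705562 (r = 0.982), and those most like the brightest ACE probe were APH1A A_72_P140696 (r = 0.994) and RNF4 A_72_P544777 (r = 0.992). Other probes of the same genes were less alike, with r = 0.318 for AQP2 A_72_P414263, the collecting duct marker probe, r = 0.182 for RNF4 A_72_P223282, and r from 0.526 to 0.743 for APH1A and from 0.596 to 0.975 for ND1. These are descriptions over 6 arrays, chosen as the highest of 6793 probes compared for ENPEP and 6794 for ACE, and all points share array and slide.

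**Figure D4:**
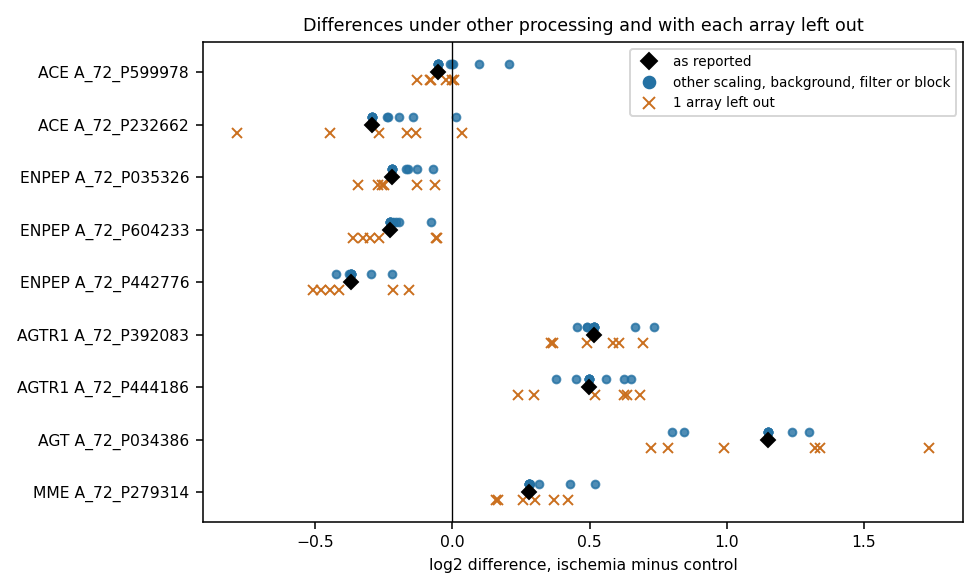
Log2 differences, ischemia minus control, of 9 probes as reported (black diamonds), under other scaling, background correction, filters and blocks (blue circles) and with 1 array left out (orange crosses). The ENPEP probes drawn stay below 0. Both AGTR1 probes, MME and AGT A_72_P034386, the only AGT probe drawn, stay above 0, while both ACE probes drawn cross 0. Filters, blocks, the variance trend and kept outlier spots leave each difference unchanged, so its sign could not change there. AGT A_72_P489129, which is not drawn, fell to 0.01 with normexp and the 75th percentile. The deposited ENPEP row, which is not drawn, was at 0.00665.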

How the data were processed

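The authors' deposited scanner files hold 1-colour (Cy3) spot intensity, which per the file headers Agilent Feature Extraction 10.10.1.1 subtracted for background and detrended within each array, while the submitters' processing notes name 11.5.1.1. The authors also deposited a table of log2 values with 1 row per accession, which served as an alternative. Its normalization between arrays is not stated in those sources.

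Each array's 75th percentile, taken over all spots but the control spots, was subtracted from its log2 processed signals. Outlier spots were left out after that step, and the spots of each probe were averaged. Probes well above background on at least 3 arrays with at least 5 values were kept (25013). No spot was saturated. The comparison of ischemia with control used limma 3.58.1 (R 4.3.3), and its two-sided p-values were adjusted by Benjamini-Hochberg across every probe tested. Between 52.6% and 61.4% of 43803 spots per array were well above background; the number of arrays limits the precision. The members, lists and tests were chosen with earlier results of these data known. Named were all probes of the listed genes, up to 8 genes of the wider list by smallest p plus set genes (1 of them is not reported here), the 2 brightest markers of lists set beside a result, and the 2 most alike probes. Alternatives were other scaling, background correction, filters, blocks, a variance trend and each array left out. Values were read and drawn in Python 3.11.15.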

Additional observations from a re-analysis of the deposited data

How the results depend on the processing

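No probe named ACE or ENPEP, and none of the wider list, passed limma after adjustment in any of the 17 alternatives, and the counts with each array left out were 0 to 0. The deposited table has a row for some of these probes only. Of 269 values recomputed, 9 changed sign, and 260 did not and stayed on the same side of the threshold. The 260 include counts of passing probes, which have no direction. They also include fits with another filter, a block, a variance trend or outlier spots kept. Those fits left each difference unchanged, so its sign could not change there. For ACE A_72_P599978 the difference of -0.05 became 0.10 with median centring, 0.00102 with normexp and the 75th percentile, 0.20 in the deposited values and 0.00569 without control replicate 1. ACE A_72_P232662 became 0.0122 in the deposited values and 0.0358 without control replicate 1, and ACE A_72_P404518 became 0.0276 and 0.115. With each array left out these 3 probes ranged from -0.128 to 0.00569, from -0.785 to 0.0358 and from -0.672 to 0.115. The deposited ENPEP row stands for its accession rather than 1 probe, and its difference was 0.00665. Averaging the probes of a gene gave -0.17 for ACE and -0.27 for ENPEP. The causes were not tested. The median difference of all probes was -0.04 as scaled here and 0.11 with median centring. Probes past the adjusted threshold over the whole array numbered 1 as reported, and 11 with median centring, 4 in the deposited values and 0 with quantile normalization. The sample numbers do not pair the kidneys (correlations of deviations -0.35, -0.17 and -0.05 for same-numbered kidneys), and with the replicate block the count stayed 0 of 5. With arrays on the same slide these correlations were 0.33, 0.34 and 0.10.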
